A study of Caenorhabditis elegans with 20 samples.

Results

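Potassium channel genes of Caenorhabditis elegans were followed through 5 ribosome purifications. The 69 genes were taken by name. They carry one of the family names twk, kcnl, kqt, kvs, irk, shk, shl, shw or slo, or are unc-103, egl-2, egl-36, exp-2, sup-9 or unc-58. They are 69 of the 18917 genes named in the deposited tables, and the RefSeq gene table (WBcel235) holds 71 symbols of that form, of which kvs-2 and twk-4 are not in the tables. By family they are 45 two-pore channels, 10 Shaker-related voltage-gated channels, 4 small-conductance calcium-activated channels, 3 KCNQ-like channels, 3 inward rectifiers, 2 large-conductance channels, and 2 of the EAG and ERG type.

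In TRAP (translating ribosome affinity purification), tagged ribosomes of chosen cells are pulled from a whole-animal lysate and the RNA bound to them is sequenced beside the RNA of the lysate, called input. Each strain gave 2 TRAP and 2 input libraries, 20 in all: JAC127 for muscle, JAC382 for intestine, JAC126 for neurons, JAC433 for serotonin neurons and JAC379 for dopamine neurons. The animals of all groups were L4 larvae from bleached cultures, kept at 22 °C on OP50-1 bacteria and taken 46 to 48 hours after release from L1, and no treatment is named for any group. Neither the promoters that drove the tags nor the full genotypes are given in the sources used here. Input is the whole animal of the same strain, so it also holds the tagged cells' own RNA.

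Potassium channels let potassium leave the cell and so pull the membrane potential down, ending action potentials and setting the resting potential. Voltage-gated and calcium-activated channels open during activity, inward rectifiers hold the membrane near rest, and two-pore channels carry the background leak. The worm has an unusually large two-pore family, and its neurons and muscles rely on potassium channels to shape calcium-based excitation.

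Levels are in RPKM, read numbers scaled by gene length and by library size, and so can be set beside each other between genes. They are given for replicate 1 and then replicate 2. A table lists a gene in a replicate only if TRAP or input reached 1 RPKM. A gene was tested if both replicates listed it and its mean over the 4 libraries reached 1 RPKM. A change is the difference of mean log2(RPKM + 1), TRAP minus input, which understates the fold of low genes. A gene is called higher or lower at an adjusted p under 0.05 in limma, with n = 2 TRAP and 2 input libraries. Nothing in the labels says that replicates came from separate cultures, though the table headers call them biological replicates.

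The recovered reads per library ran from 4.46 M in neuronal input 1 to 239.7 M in dopamine input 1. Defining markers followed the labels in muscle, where 8 body wall muscle genes summed to 122171 and 112087 RPKM in TRAP and 13809 and 9154 in input. Summed pan-neuronal markers (10 genes) stood at 5867 and 4223 RPKM in neuronal TRAP and 314 and 84.6 in its inputs, and 9 intestinal markers at 5603 and 10446 RPKM in intestine TRAP and 2353 and 2964 in its inputs. In the serotonin and dopamine purifications the pan-neuronal sum was not set apart, at 673 and 353 RPKM in serotonin TRAP and 550 and 272 in its inputs, and at 365 and 200.5 RPKM in dopamine TRAP and 199.9 and 285 in its inputs. Of their own 5-gene marker lists, tph-1, mod-5, cat-2 and dat-1 followed the labels, but the summed lists did not. tph-1, of serotonin synthesis, was at 67.2 and 7.58 RPKM in serotonin TRAP and 3.47 and 0.53 in its inputs. mod-5, of serotonin uptake, was at 7.79 and 1.46 RPKM in serotonin TRAP and 2.41 and 1.34 in its inputs. In dopamine TRAP, cat-2, of dopamine synthesis, was at 30.5 and 4.57 RPKM against 0.503 and 0.486 in input, and the dopamine transporter gene dat-1 at 41.02 and 5.43 RPKM against 1.76 and 0.99. Each of these genes was higher in TRAP 1 than in TRAP 2. The 5 summed serotonin markers stood at 226.6 and 85.9 RPKM in serotonin TRAP and 335.1 and 169.4 in its inputs. For the 5 dopamine markers the sums were 127.2 and 36.7 RPKM in dopamine TRAP and 286.1 and 118.9 in its inputs. Both lists hold cat-4, which lay below input in each replicate of both purifications, and cat-1, which lay above it. Dopamine TRAP 2 stood apart from its partner, with a body wall muscle sum of 48823 RPKM against 5457 in TRAP 1 and 11977 and 13287 in the inputs. Most of that sum was the myosin gene unc-54, at 33081 RPKM in TRAP 2, and the summed 5 pharyngeal muscle genes also were high there (1881 RPKM against 193 in TRAP 1 and 333 and 219 in the inputs), while the body wall muscle genes pat-10 (1925 RPKM against 6938 and 5881) and mlc-3 (2291 against 2579 and 2656) were below both inputs. Myosin genes were above input in serotonin TRAP too, with unc-54 at 1952 and 1756 RPKM against 65 and 33.8 in input. There myo-3 was at 310 and 477 RPKM against 3.83 and 6.81. The serotonin body wall muscle sum was nevertheless below both inputs, at 8162 and 11200.5 RPKM against 15357 and 13777. In dopamine TRAP 1, unc-54 was at 418 RPKM against 23.3 in input 1 and 146 in input 2. In these bulk samples, fewer cells of a type and less RNA per cell cannot be told apart.

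The muscle purification listed 30 of the 69 members, the intestine 54, the neuronal 65, and the serotonin and dopamine purifications 62 each. Of these, 17 could be tested in muscle, 44 in intestine, 54 in neurons, 50 in serotonin neurons and 46 in dopamine neurons. Members are listed where either fraction is high, so the shares below describe the members tested and not all 69. In replicates 1 and 2 TRAP stood above input for 49 and 54 of the 54 tested in neurons, and for 5 and 5 of the 44 tested in the intestine. A member with TRAP under 1 RPKM is listed only through input, so there TRAP below input was fixed by the listing. Likewise, a member with input under 1 RPKM is listed only through TRAP, so there TRAP above input was fixed by the listing. That covers most members in neuronal replicate 2, where the inputs of 55 listed members summed to 9.05 RPKM. It also covers most in muscle replicate 1, where those of 21 summed to 7.79 RPKM. In neuronal replicate 1 input was under 1 RPKM as well for many members called below, so their direction was fixed in both replicates. Outside the two-pore family these were egl-36, shw-3, kvs-1, kvs-4, kqt-1, irk-1, irk-2 and kcnl-3. The two-pore genes among them were twk-3, twk-9, twk-10, twk-14, twk-16, twk-23, twk-30, twk-32, twk-35, twk-43 and twk-47.

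**Figure D1:**
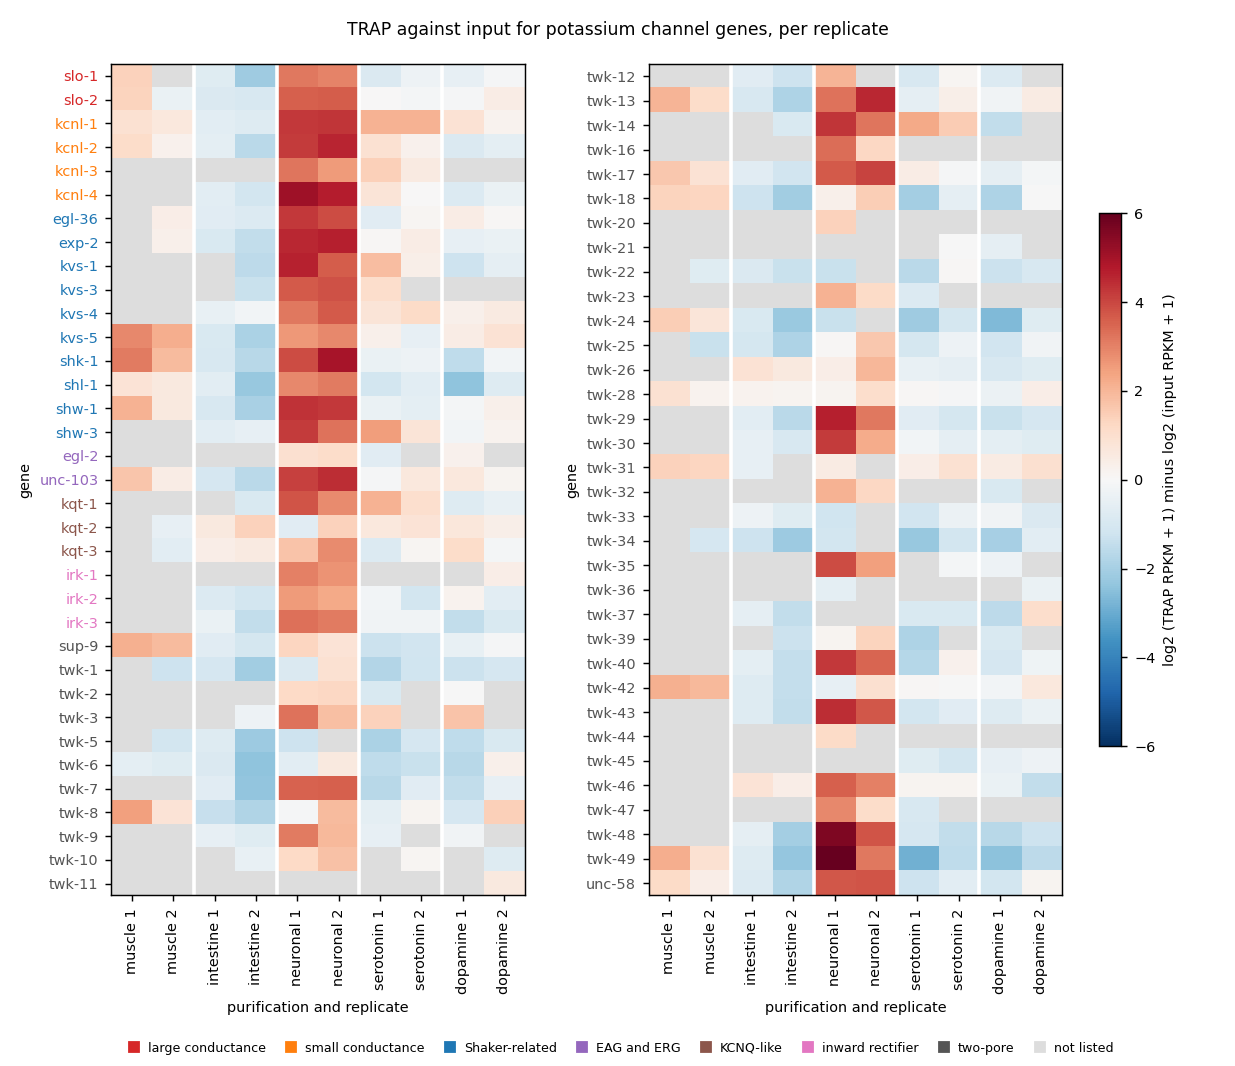
Change of each potassium channel gene (rows, names coloured by family) in each replicate of the 5 purifications (columns), as log2(TRAP RPKM + 1) minus log2(input RPKM + 1), with red for TRAP above input, blue for TRAP below and grey for a gene not listed. The neuronal columns are red for all but a few two-pore genes and kqt-2, and the intestine columns are blue except for kqt-2, kqt-3, twk-26, twk-28 and twk-46.

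In the neuronal purification potassium channel RNA was higher in TRAP than in input across every family. The test called 38 of 54 members higher and 0 lower, where 16.8% of the 13435 genes tested were called higher. With RLE scaling 23 members were called higher and 0 lower, and edgeR called no member and no other gene in either direction, with 40 members at an unadjusted p under 0.05. The median change of the members was 3.20 on the log2 scale, and that of all genes tested was 0.81. Both TRAP libraries lay above both inputs for 46 of the 54, against 43% of all genes, and for no member did both lie below. The listing limits what these counts show, as given above. The called members comprised 4 of 4 small-conductance, 2 of 2 large-conductance, 3 of 3 inward rectifier, 8 of 10 Shaker-related, 1 of 3 KCNQ-like, 1 of 2 EAG and ERG and 19 of 30 two-pore genes.

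**Figure D2:**
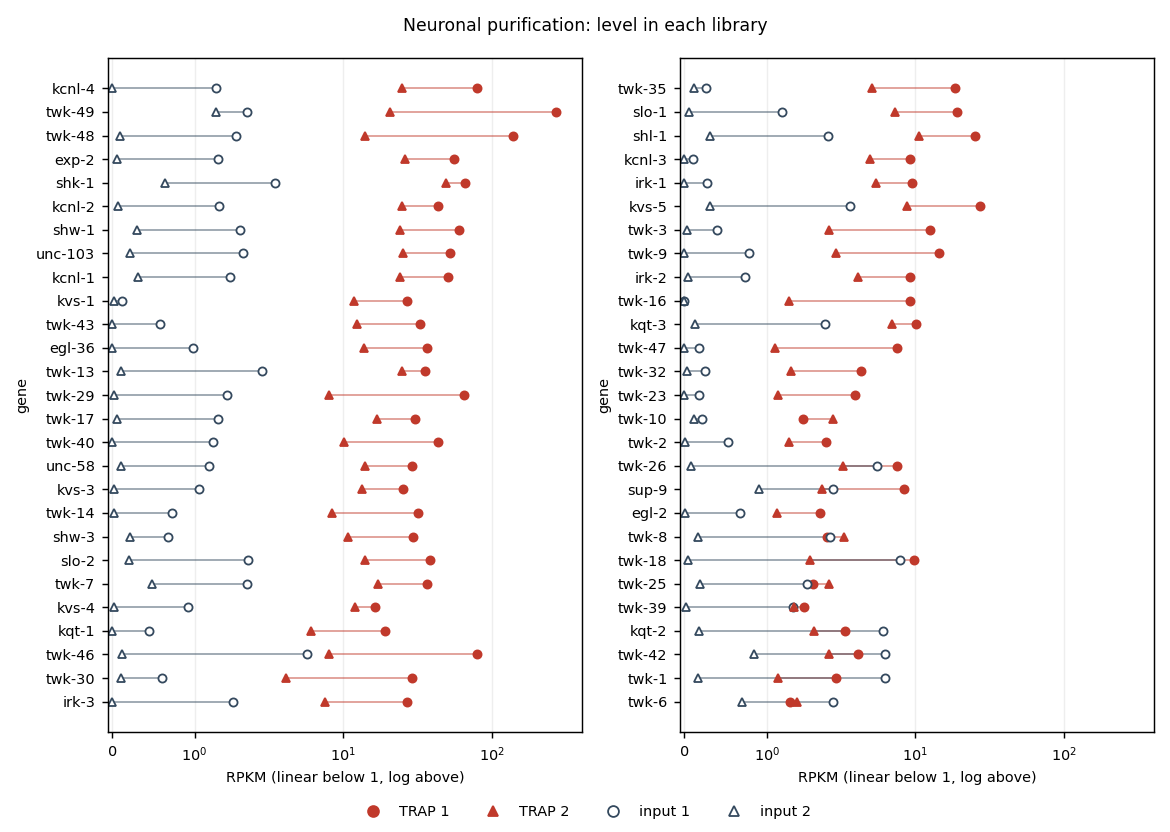
RPKM of the 54 tested potassium channel genes in the 2 TRAP libraries (red) and 2 input libraries (open) of the neuronal purification, ordered by change, circles for replicate 1 and triangles for replicate 2, with lines joining libraries of one kind. The fractions overlap for 8 genes, which are twk-26, sup-9, twk-8, twk-18, kqt-2, twk-42, twk-1 and twk-6, and input 2 lies below input 1 for all 54 genes but twk-16, which has no read in either.

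Small-conductance channels open when internal calcium rises, and all 4 were called higher. Of them, kcnl-4 stood at 79.4 and 25.03 RPKM in TRAP and 1.38 and 0 RPKM in input, a change of 4.89 ± 1.33 (SE) and an adjusted p of 0.0042 in limma. For kcnl-2 the levels were 43.5 and 24.8 RPKM in TRAP and 1.46 and 0.078 RPKM in input (change 4.38), and for kcnl-1 they were 51.1 and 24.3 RPKM in TRAP and 1.73 and 0.31 RPKM in input (change 4.26). The lowest of the family, kcnl-3, was at 9.25 and 4.91 RPKM in TRAP and 0.11 and 0 RPKM in input (change 2.89). All 4 had TRAP above input in both replicates with no overlap, and kcnl-3 was in none of the muscle, intestine and dopamine tables. The large-conductance genes slo-1, the BK channel that limits transmitter release, and its relative slo-2 were called as well. Levels of slo-1 were 19.05 and 7.25 RPKM in TRAP and 1.27 and 0.06 RPKM in input (change 3.05, adjusted p 0.036 in limma). Levels of slo-2 were 38.2 and 14.1 RPKM in TRAP and 2.28 and 0.2 RPKM in input (change 3.62, adjusted p 0.036). For both, the lower TRAP library was above the higher input.

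Voltage-gated channels were as high. The Shaker gene shk-1, a delayed rectifier of neurons and muscle, had 66.1 and 49.5 RPKM in TRAP and 3.495 and 0.64 RPKM in input, a change of 4.42 ± 1.29 (SE). It was the highest member in TRAP 2 and the fifth highest in TRAP 1. exp-2, a Kv-type gene best known for ending the action potential of pharyngeal muscle, stood at 55.8 and 26.2 RPKM in TRAP and 1.44 and 0.056 RPKM in input (change 4.61). egl-36, a Shaw-type channel, was at 36.8 and 13.8 RPKM in TRAP and 0.99 and 0 RPKM in input (change 4.07). The other Shaw genes followed, with shw-1 at 60.5 and 24.05 RPKM in TRAP and 2.03 and 0.3 RPKM in input (change 4.304). For shw-3 the levels were 29.5 and 10.8 RPKM in TRAP and 0.68 and 0.21 RPKM in input (change 3.73). Of the kvs genes, kvs-1 was at 26.7 and 11.8 RPKM in TRAP and 0.12 and 0.018 RPKM in input (change 4.14). None of these 6 genes overlapped between fractions. kvs-3 was at 25.5 and 13.3 RPKM in TRAP and 1.06 and 0.022 RPKM in input (change 3.75) and kvs-4 at 16.4 and 11.97 RPKM in TRAP and 0.92 and 0.019 RPKM in input (change 3.42). Of the family, kvs-5 and the Shal-type A-current gene shl-1 were not called. The first was at 27.01 and 8.71 RPKM in TRAP and 3.604 and 0.31 RPKM in input, a change of 2.75 and an adjusted p of 0.14 in limma, and the second at 25.2 and 10.5 RPKM in TRAP and 2.59 and 0.31 RPKM in input, a change of 2.998 and an adjusted p of 0.091. Both nevertheless had TRAP above input without overlap.

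The ERG gene unc-103 was at 52.5 and 25.4 RPKM in TRAP and 2.12 and 0.21 RPKM in input, a change of 4.27 ± 1.33 (SE) and an adjusted p of 0.012 in limma, while the EAG gene egl-2 stayed low at 2.29 and 1.17 RPKM in TRAP and 0.68 and 0.0096 RPKM in input and was not called (adjusted p 0.19). ERG and EAG channels are related voltage-gated channels that set excitability thresholds. The KCNQ genes split in the same way. KCNQ-type channels carry slow currents that restrain repeated firing. kqt-1 was called, at 19.1 and 6.03 RPKM in TRAP and 0.45 and 0 RPKM in input (change 3.304, adjusted p 0.009). kqt-3 was at 10.1 and 6.98 RPKM in TRAP and 2.45 and 0.13 RPKM in input (change 2.26, adjusted p 0.16), and kqt-2 at 3.35 and 2.07 RPKM in TRAP and 6.08 and 0.18 RPKM in input (change 0.34, adjusted p 0.93), where TRAP lay below input in replicate 1 and above it in replicate 2. The inward rectifiers were all called. irk-1, known from the egg-laying motor neurons, was at 9.43 and 5.41 RPKM in TRAP and 0.27 and 0 RPKM in input (change 2.86). irk-2 was at 9.16 and 4.11 RPKM in TRAP and 0.73 and 0.041 RPKM in input (change 2.42) and irk-3 at 26.9 and 7.54 RPKM in TRAP and 1.82 and 0 RPKM in input (change 3.201), each without overlap.

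The two-pore genes covered a wide range in neurons. The highest level of any member in TRAP 1 was that of twk-49, which stood below shk-1 and other members in TRAP 2, at 271 and 20.6 RPKM in TRAP and 2.26 and 1.399 RPKM in input, a change of 4.78 ± 1.26 (SE) and an adjusted p of 0.0033 in limma. twk-48 followed, at 139.9 and 13.9 RPKM in TRAP and 1.896 and 0.098 RPKM in input (change 4.68). twk-29 was at 65.5 and 8.04 RPKM in TRAP and 1.65 and 0.021 RPKM in input (change 3.897). These 3 genes were 8.14 to 13.1 times higher in TRAP 1 than in TRAP 2, more than the 2.40 times of the median member, but both libraries stayed above the inputs. More even between replicates was twk-13, at 35.7 and 24.8 RPKM in TRAP and 2.82 and 0.11 RPKM in input (change 3.902). So were twk-17, at 30.3 and 16.9 RPKM in TRAP and 1.43 and 0.062 RPKM in input (change 3.88), and unc-58, at 29.1 and 14.03 RPKM in TRAP and 1.25 and 0.11 RPKM in input (change 3.75). unc-58 is a two-pore gene whose altered forms disturb movement. For twk-7 the levels were 36.8 and 17.04 RPKM in TRAP and 2.26 and 0.48 RPKM in input (change 3.57). For twk-43 they were 32.7 and 12.4 RPKM in TRAP and 0.59 and 0 RPKM in input (change 4.08), and for twk-40, which acts in the motor circuit, 43.8 and 10.1 RPKM in TRAP and 1.34 and 0 RPKM in input (change 3.87). None of these genes overlapped between fractions.

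Another 10 two-pore genes were called. All 10 had input under 1 RPKM in both replicates, so the listing fixed TRAP above input for them. twk-14 was at 32.1 and 8.45 RPKM in TRAP and 0.72 and 0.02 RPKM in input (change 3.74), and twk-30 at 28.8 and 4.14 RPKM in TRAP and 0.61 and 0.1 RPKM in input (change 3.22). twk-35 was at 18.4 and 5.12 RPKM in TRAP and 0.27 and 0.11 RPKM in input (change 3.196), and twk-9 at 14.5 and 2.91 RPKM in TRAP and 0.78 and 0 RPKM in input (change 2.55). Each of these 4 was several times higher in TRAP 1 than in TRAP 2. For twk-3 the levels were 12.4 and 2.63 RPKM in TRAP and 0.39 and 0.028 RPKM in input (change 2.55), and for twk-47 they were 7.53 and 1.13 RPKM in TRAP and 0.17 and 0 RPKM in input (change 1.98). twk-23 was at 3.94 and 1.19 RPKM in TRAP and 0.18 and 0 RPKM in input (change 1.595), and twk-32 at 4.297 and 1.45 RPKM in TRAP and 0.24 and 0.035 RPKM in input (change 1.67). The lowest called member was twk-10, at 1.74 and 2.79 RPKM in TRAP and 0.21 and 0.12 RPKM in input (change 1.47, adjusted p 0.044 in limma). twk-16 had 9.13 and 1.402 RPKM in TRAP and 0 and 0 RPKM in input, with no read in either input; set against a floor of 3 reads in each input library, its mean TRAP level was at least 22.7-fold higher. With the replicate as a block, twk-10 (adjusted p 0.086, with 1.5e-09 to 0.18 over all alternatives) and twk-32 (0.052, with 6.4e-10 to 0.22) no longer passed.

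Of the 16 members tested and not called in neurons, twk-46 had the largest change, 3.299 with an adjusted p of 0.069 in limma. It stood at 80.1 and 8.04 RPKM in TRAP and 5.73 and 0.12 RPKM in input. Among them were two-pore genes known from muscle. sup-9, a muscle two-pore channel, was at 8.37 and 2.34 RPKM in TRAP and 2.78 and 0.91 RPKM in input (change 1.06, adjusted p 0.62). twk-18, whose overactive form paralyses body wall muscle, was at 9.75 and 1.96 RPKM in TRAP and 7.83 and 0.05 RPKM in input (change 0.89, adjusted p 0.73). For both genes the fractions overlapped. twk-8, twk-25, twk-26, twk-39, twk-2 and twk-42 had changes from 0.24 to 1.22. The smallest were twk-1, at 2.903 and 1.18 RPKM in TRAP and 6.22 and 0.16 RPKM in input (change 0.01), and twk-6, at 1.42 and 1.58 RPKM in TRAP and 2.81 and 0.7 RPKM in input (change -0.03). Replicate 1 had TRAP below input in 5 of the 16, which are kqt-2, twk-1, twk-6, twk-8 and twk-42, and replicate 2 had TRAP above input in all 5.

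The neuronal inputs are the weak side of this comparison. Listed members had a median of 12 reads in input 1 and 4 in input 2, against 2776 and 635 in TRAP, and 3 of 65 and 13 of 55 had no input read. Leaving out input 2 left 0 of 54 members called in limma, where 3.08% of genes were called higher, with 31 members (57.4%) and 25.2% of genes at an unadjusted p under 0.05. Leaving out TRAP 1 left 18 members (8.49% of genes), TRAP 2 left 17 (10.1% of genes) and input 1 left 30 (28.6% of genes). With RLE scaling, which moved the median of all genes from 0.81 to -0.09, 23 members were called, where 10.2% of genes were. With edgeR on recovered reads 0 were called of the members and of all genes, with 40 members (74.1%) and 29.5% of genes at an unadjusted p under 0.05. Per replicate the members' median was 3.29 and 2.93, and that of all genes 0.00 and 1.58. Set against every listed input library of all 5 strains, in tables normalized separately, both neuronal TRAP libraries were the higher for 36 of the 54 members, which is 66.7%, and for 22.8% of all genes tested.

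Other genes of potassium handling were taken as a list of 31: accessory subunits, the two-pore gene egl-23, sodium pump subunits and depolarising channels. In neurons 10 of 23 tested were called higher and 0 lower in limma, beside 16.8% of all genes called higher, and edgeR called 0 of all genes. bkip-1, an accessory protein of the SLO-1 channel, had 295 and 181 RPKM in TRAP and 7.58 and 4.75 RPKM in input (change 5.05 ± 1.06 (SE), adjusted p 1.1e-04 in limma). Both fractions of bkip-1 lay above those of slo-1 per length. ctn-1, which helps place SLO-1, changed by 3.35, and mps-1, a single-pass partner of KVS-1, by 3.63 at 31.1 and 5.14 RPKM in TRAP and 0 and 0.29 RPKM in input. egl-23 was at 43.9 and 4.402 RPKM in TRAP and 1.09 and 0.014 RPKM in input (change 3.42), as uneven between TRAP libraries as twk-48. The other called genes were those of the sodium leak and calcium channels: nlf-1 (5.601), unc-80 (3.61), unc-79 (3.44), nca-2 (2.405), unc-2 (3.26) and ccb-1 (4.04).

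In the muscle purification shk-1 and kvs-5 had the highest TRAP levels and the largest changes of the members. Of the 17 members tested, 0 were called in limma in either direction, where 1.1% of the 10048 genes tested were called higher, and 9 of the 17 (52.9%) had an unadjusted p under 0.05, as did 11.5% of genes. With the replicate block 0 members were called as well, where 3.26% of genes were called higher and 4.27% lower. Under RLE scaling 3 were called higher (kvs-5, shk-1 and twk-42), where 2.87% of genes were. edgeR on recovered reads called 4, the same 3 and twk-31, where 2.85% of genes were. The members' median change was 1.32 and that of all genes tested -0.56. Both TRAP libraries lay above both inputs for 15 of the 17, against 13.2% of all genes. In replicate 1 the listing fixed that direction for most members, as given above.

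**Figure D3:**
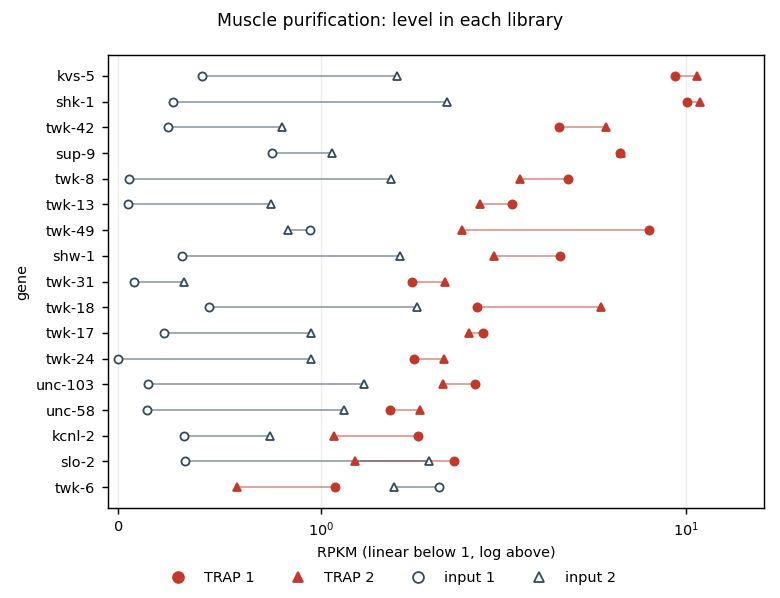
RPKM of the 17 tested potassium channel genes in the TRAP (red) and input (open) libraries of the muscle purification, ordered by change, circles for replicate 1 and triangles for replicate 2. The fractions overlap for slo-2 alone, and twk-6 alone has TRAP below input in both replicates.

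shk-1 stood at 10.1 and 10.97 RPKM in TRAP and 0.27 and 2.22 RPKM in input, a change of 2.51 ± 1.11 (SE) and an adjusted p of 0.31 in limma. kvs-5 was at 9.36 and 10.7 RPKM in TRAP and 0.41 and 1.62 RPKM in input, a change of 2.52 ± 1.08 (SE) and an adjusted p of 0.29. These were the highest of all members in both muscle TRAP libraries, and their inputs differed several times between replicates. Several two-pore genes also had TRAP above input. sup-9 was at 6.63 and 6.64 RPKM in TRAP and 0.76 and 1.07 RPKM in input (change 1.9996, adjusted p 0.38). twk-42 was at 4.505 and 6.05 RPKM in TRAP and 0.24 and 0.81 RPKM in input (change 2.06, adjusted p 0.19). twk-8 was at 4.78 and 3.52 RPKM in TRAP and 0.053 and 1.56 RPKM in input (change 1.64, adjusted p 0.33). All 3 were without overlap. twk-13 had 3.33 and 2.73 RPKM in TRAP and 0.048 and 0.75 RPKM in input (change 1.57), and twk-31 1.78 and 2.195 RPKM in TRAP and 0.079 and 0.33 RPKM in input (change 1.32). twk-18 had 2.69 and 5.86 RPKM in TRAP and 0.45 and 1.83 RPKM in input (change 1.31), higher in TRAP 2 than in TRAP 1. twk-49 had 7.94 and 2.43 RPKM in TRAP and 0.95 and 0.84 RPKM in input (change 1.55), higher in TRAP 1 than in TRAP 2. None of these 4 overlapped.

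Of the other members in muscle, shw-1 stood at 4.52 and 2.98 RPKM in TRAP and 0.32 and 1.64 RPKM in input, unc-103 at 2.65 and 2.17 RPKM in TRAP and 0.15 and 1.31 RPKM in input and unc-58 at 1.55 and 1.87 RPKM in TRAP and 0.14 and 1.16 RPKM in input. slo-1 was listed in replicate 1 only, with 1.88 RPKM in TRAP and 0.099 RPKM in input of replicate 1, and slo-2 overlapped, with 2.32 and 1.24 RPKM in TRAP and 0.33 and 1.97 RPKM in input. egl-36 and exp-2 were listed in replicate 2 only, with 1.25 and 1.40 RPKM in TRAP. The 1 member below input in both replicates was twk-6, at 1.09 and 0.59 RPKM in TRAP and 2.11 and 1.59 RPKM in input (change -0.64). The 39 members absent from the muscle tables included all 3 irk genes, kqt-1, kvs-1, kvs-3, kvs-4, shw-3, kcnl-3 and kcnl-4, each of which was called higher in neurons.

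Muscle inputs differed between replicates, with the listed members summing to 7.79 RPKM in input 1 and 38.4 in input 2, against 75.5 and 75.7 in TRAP. The median change over all genes was 0.05 in replicate 1 and -1.14 in replicate 2. Among the other genes of potassium handling 0 of 15 tested were called in limma. With the replicate block bkip-1 was called (change 3.23, adjusted p 8.8e-04, with 8.8e-04 to 1 over all alternatives), at 42.6 and 89.7 RPKM in TRAP and 3.37 and 9.22 RPKM in input, and so was ccb-1, a calcium channel beta subunit (change 2.59, adjusted p 0.044, with 0.04 to 1). With the block 3.26% of all genes were called higher in muscle. SUP-9 works with the proteins of sup-10 and unc-93. sup-10 was at 3.62 and 3.16 RPKM in TRAP and 0.25 and 0.82 RPKM in input, and unc-93 at 4.07 and 1.85 RPKM in TRAP and 0.37 and 0.66 RPKM in input, each without overlap.

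In the intestine purification most potassium channel genes were lower in TRAP, and a few two-pore and KCNQ genes went the other way. In limma 4 of 44 members were called lower, where 5.34% of the 14051 genes tested were. The share of members is 9.09%. None was called higher, where 0.406% of genes were; the RLE and edgeR counts were also 0, and 30 members (68.2%) and 29.8% of genes had an unadjusted p under 0.05 in either direction. The members' median change was -1.12 and that of all genes -0.74. Both TRAP libraries lay below both inputs for 38 of the 44, against 56.5% of all genes, and above both for twk-26 alone. The listing limits this count too, since a member with TRAP under 1 RPKM is listed only through input.

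The 4 called genes were slo-1, shl-1, twk-6 and twk-7. For slo-1, shl-1 and twk-7 TRAP was under 1 RPKM in both replicates, so TRAP below input was fixed by the listing. For twk-6 this held in replicate 2. slo-1 was at 0.71 and 0.9 RPKM in TRAP and 1.83 and 7.37 RPKM in input, a change of -1.43 ± 0.48 (SE) and an adjusted p of 0.049 in limma. shl-1 was at 0.99 and 0.32 RPKM in TRAP and 2.09 and 5.38 RPKM in input (change -1.45, adjusted p 0.038). In both, replicate 2 differed more than replicate 1. twk-6 was at 1.75 and 0.61 RPKM in TRAP and 4.05 and 7.47 RPKM in input (change -1.64, adjusted p 0.041), and twk-7 at 0.99 and 0.25 RPKM in TRAP and 2.21 and 5.53 RPKM in input (change -1.54, adjusted p 0.027). With the replicate block 19 members were called lower, where 20.9% of all genes were. The added genes were shk-1, shw-1, kvs-5, unc-103, unc-58, twk-1, twk-5, twk-8, twk-13, twk-18, twk-24, twk-25, twk-34, twk-48 and twk-49. The highest of these in input was twk-18, at 6.78 and 3.48 RPKM in TRAP and 17.2 and 18.03 RPKM in input (change -1.66, adjusted p 0.016 with the block, 0.016 to 0.8 over all alternatives). Changes of the other 14 ran from -1.72 for twk-34 to -1.28 for twk-48, and none of the 15 overlapped.

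Among these 14 the voltage-gated genes were low in TRAP. shk-1 was at 3.34 and 2.52 RPKM in TRAP and 7.54 and 9.99 RPKM in input, and shw-1 at 1.82 and 1.16 RPKM in TRAP and 4.55 and 7.397 RPKM in input. kvs-5 was at 3.28 and 2.47 RPKM in TRAP and 7.15 and 11.95 RPKM in input, and the ERG gene unc-103 at 2.67 and 2.01 RPKM in TRAP and 6.37 and 8.17 RPKM in input. In each of these 4 genes the higher TRAP library was below the lower input. Of the two-pore genes, unc-58 was at 1.86 and 1.32 RPKM in TRAP and 4.09 and 7.14 RPKM in input, twk-8 at 2.61 and 2.02 RPKM in TRAP and 8.43 and 9.64 RPKM in input and twk-13 at 1.97 and 1.11 RPKM in TRAP and 4.72 and 6.59 RPKM in input. twk-1 was at 3.91 and 1.64 RPKM in TRAP and 8.95 and 10.4 RPKM in input and twk-5 at 6.94 and 1.3998 RPKM in TRAP and 12.7 and 9.89 RPKM in input. twk-24 was at 2.22 and 0.64 RPKM in TRAP and 5.02 and 6.69 RPKM in input and twk-25 at 2.36 and 2.49 RPKM in TRAP and 5.88 and 11.8 RPKM in input. These 7 also had both TRAP libraries below both inputs. twk-34 was at 3.802 and 1.39 RPKM in TRAP and 10.4 and 9.93 RPKM in input, twk-48 at 1.61 and 0.86 RPKM in TRAP and 2.78 and 6.55 RPKM in input and twk-49 at 2.52 and 2.08 RPKM in TRAP and 5.08 and 14.4 RPKM in input, again without overlap.

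RLE scaling, which moved the median of all genes from -0.74 to -0.04, and edgeR each called 0 members and 0 of the 14051 genes in either direction, with 9 (20.5%) and 12 (27.3%) members at an unadjusted p under 0.05, where 15.3% and 15.7% of genes were. Leaving out TRAP 2 or input 2 gave 0 members called lower (0.334% and 1.72% of genes), leaving out TRAP 1 gave 1 (4.51% of genes), and leaving out input 1 gave 6 (9.05% of genes).

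Against this direction 5 members had TRAP above input in both replicates. kqt-2 was at 13.2 and 7.15 RPKM in TRAP and 8.37 and 2.15 RPKM in input, a change of 0.98 and an adjusted p of 0.27 in limma. kqt-3 was at 5.34 and 10.7 RPKM in TRAP and 3.87 and 7.12 RPKM in input (change 0.45, adjusted p 0.62). Their relative kqt-1 was listed in replicate 2 alone, with 0.34 RPKM in TRAP and 1.51 RPKM in input of replicate 2. twk-46 was at 15.3 and 22.3 RPKM in TRAP and 8.39 and 16.5 RPKM in input (change 0.604, adjusted p 0.51). twk-26 was at 13.2 and 19.99 RPKM in TRAP and 6.84 and 12.99 RPKM in input (change 0.72, adjusted p 0.43). These two-pore genes were the highest of all members in both intestine TRAP libraries. twk-28 was at 5.05 and 4.17 RPKM in TRAP and 4.23 and 3.56 RPKM in input (change 0.19). limma called none of the 5, with or without the block. In the authors' deposited table of intestine-enriched genes, twk-26 was the 1 of 69 members among 719 genes, with an average enrichment of 2.26. All tables together name 18917 genes. Of the other genes of potassium handling, nkb-2, a sodium pump beta subunit, was the 1 of 22 tested that was called, lower at 16.6 and 2.86 RPKM in TRAP and 41.96 and 33.7 RPKM in input (change -2.23, adjusted p 0.02 in limma), and 10 were called lower with the block. Of all genes, 5.34% were called lower in limma without the block and 20.9% with it.

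The changes themselves differed between tissues. For 27 of 39 members the neuronal change exceeded the intestine change, where 13.4% of 12396 genes did, and for 0 the reverse held in limma, with RLE scaling or by edgeR. The listing built in part of this direction. It fixed TRAP above input in both neuronal replicates for egl-36, shw-3, kvs-4, irk-2, twk-43, twk-30 and twk-9. For slo-1, shl-1 and twk-7 it fixed TRAP below input in both intestine replicates. The largest differences were those of twk-49 (6.33 ± 1.46 (SE), adjusted p 0.0054 in limma), twk-48 (5.96), exp-2 (5.79), shw-1 (5.77) and kcnl-4 (5.75). All 8 Shaker-related genes tested, all 3 small-conductance genes, both large-conductance genes and both inward rectifiers were among the 27, with 11 of 21 two-pore genes and 0 of 2 KCNQ genes. The KCNQ genes differed by -0.65 (kqt-2) and 1.804 (kqt-3). kvs-5 and shl-1, not called within the neuronal purification, passed here.

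The muscle change exceeded the intestine change for 8 of 19 members, where 3.89% of 10083 genes did. They were kvs-5 (3.94 ± 1.003 (SE), adjusted p 0.024 in limma), shk-1 (3.82), twk-8 (3.24), twk-42 (3.17), twk-13 (2.97), shw-1 (2.798), twk-24 (2.66) and shl-1 (2.16). With the replicate block 14 were called, where 7.32% of genes were, adding sup-9, twk-17, twk-18, twk-49, unc-58 and unc-103. The listing fixed the direction of shl-1 in the intestine and of most members in muscle replicate 1. The count rested on single libraries. It was 0 without muscle TRAP 1, intestine TRAP 2, intestine input 1 or intestine input 2, 1 without muscle TRAP 2, 2 without muscle input 1, 3 without intestine TRAP 1 and 12 without muscle input 2. The share of all genes called higher moved as well, to 0.188% to 0.526% without intestine TRAP 2 or either intestine input, 2.06% to 2.84% without either muscle TRAP, muscle input 1 or intestine TRAP 1, and 7.83% without muscle input 2. At an unadjusted p under 0.05 between 15 and 17 of the 19 passed under each of these, where 8.37% to 25.7% of genes did. Of the SUP-9 partners, sup-10 (3.14, adjusted p 0.02) and unc-93 (2.51, adjusted p 0.024) were called in the same direction, as was bkip-1 (4.37, adjusted p 0.037).

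Between neurons and muscle 0 of 17 members were called in limma, where 0.03% of 10001 genes were called higher in neurons, and 8 of the 17 (47.1%) and 9.16% of genes had an unadjusted p under 0.05. edgeR and RLE scaling called 0 as well. With the replicate block the differences of kcnl-2 (3.7001, adjusted p 0.029, with 0.029 to 0.71 over all alternatives) and kcnl-1 (3.49, adjusted p 0.047, with 0.047 to 0.75) were called, where 3.99% of genes were. At the other end the muscle change was the larger for twk-42 (difference -1.82 ± 1.0998 (SE)), sup-9 (-0.94), twk-8 (-0.73) and twk-18 (-0.42), none of them called. The 2 changes of kvs-5 had a difference of 0.23 ± 1.38 (SE), an error too wide to call the purifications alike.

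In the serotonin purification a handful of channel genes stood high in TRAP and a set of two-pore genes stood low. Without the replicate block limma called 0 of 50 members and 0 of 14587 genes, and RLE scaling and edgeR also called 0, with 10 members (20%) at an unadjusted p under 0.05 in limma, under the 27.7% of genes. With the block 4 members were called higher, where 9.77% of genes were, and 10 lower, where 29% of genes were. Both shares of members are under those of all genes. The members' median change was -0.35 and that of all genes -0.44. Both TRAP libraries lay below both inputs for 20 of the 50 members and for 6024 of the 14587 genes. They lay above both inputs for 12 members and for 2883 genes.

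kcnl-1 had the largest change, at 14.7 and 9.701 RPKM in TRAP and 2.64 and 1.55 RPKM in input, a change of 2.09 ± 0.44 (SE) and an adjusted p of 0.11 without the block and 0.0054 with it (0.0054 to 0.43 over all alternatives). The 3 others called higher under the block were twk-14, shw-3 and kqt-1. twk-14 was at 13.3 and 5.52 RPKM in TRAP and 1.95 and 1.29 RPKM in input (change 1.896). shw-3 was at 11.6 and 3.697 RPKM in TRAP and 1.22 and 1.71 RPKM in input (change 1.65), and kqt-1 at 5.703 and 3.66 RPKM in TRAP and 0.58 and 1.296 RPKM in input (change 1.55). All 4 were above input in both replicates without overlap, and higher in TRAP 1 than in TRAP 2. So was tph-1, given above. kvs-1 (9.097 and 2.65 RPKM in TRAP and 1.804 and 1.87 RPKM in input, change 1.099), kcnl-3 (2.68 and 1.11 RPKM in TRAP and 0.37 and 0.46 RPKM in input, change 0.98) and kvs-4 (2.71 and 4.02 RPKM in TRAP and 1.18 and 1.28 RPKM in input, change 0.96) did not overlap either and were not called. In the authors' deposited table of serotonin-enriched genes, 6 of the 69 members stand among 756 genes, where 18917 genes are named in all tables. These members are kqt-1, shw-3, kcnl-1, twk-14, kcnl-3 and kvs-4. irk-1, known from the serotonergic egg-laying neurons, was not listed in either serotonin replicate.

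The 10 genes called lower with the block were twk-49, twk-34, twk-24, twk-1, twk-5, twk-6, twk-18, twk-48, sup-9 and twk-7, all two-pore. Of the 50 members tested in serotonin, 29 are two-pore. twk-49 was at 1.88 and 4.01 RPKM in TRAP and 20.03 and 13.4 RPKM in input, a change of -2.19 (adjusted p 0.11 without and 0.0071 with the block, 0.0071 to 0.43 over all alternatives). twk-34 was at 2.43 and 2.57 RPKM in TRAP and 15.5 and 6.65 RPKM in input (change -1.68), and twk-24 at 2.52 and 2.09 RPKM in TRAP and 14.5 and 5.33 RPKM in input (change -1.59). twk-18 was at 4.59 and 11.4 RPKM in TRAP and 22.1 and 16.96 RPKM in input (change -1.29). sup-9 was at 1.75 and 3.84 RPKM in TRAP and 5.63 and 9.703 RPKM in input and twk-7 at 1.68 and 1.88 RPKM in TRAP and 7.501 and 3.55 RPKM in input. twk-1 was at 2.93 and 2.62 RPKM in TRAP and 12.2 and 7.23 RPKM in input and twk-5 at 6.17 and 4.95 RPKM in TRAP and 25.7 and 10.8 RPKM in input. For all 10 both TRAP libraries lay below both inputs. The last 2 of them were twk-6, at 3.402 and 2.05 RPKM in TRAP and 11.6 and 6.71 RPKM in input, and twk-48, at 0.16 and 0.72 RPKM in TRAP and 1.32 and 3.86 RPKM in input. For twk-48, with TRAP under 1 RPKM in both replicates, the listing fixed the direction. twk-46 was the highest member in both TRAP libraries, at 24.5 and 23.9 RPKM in TRAP and 21.8 and 21.2 RPKM in input, so it was as high in input.

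**Figure D4:**
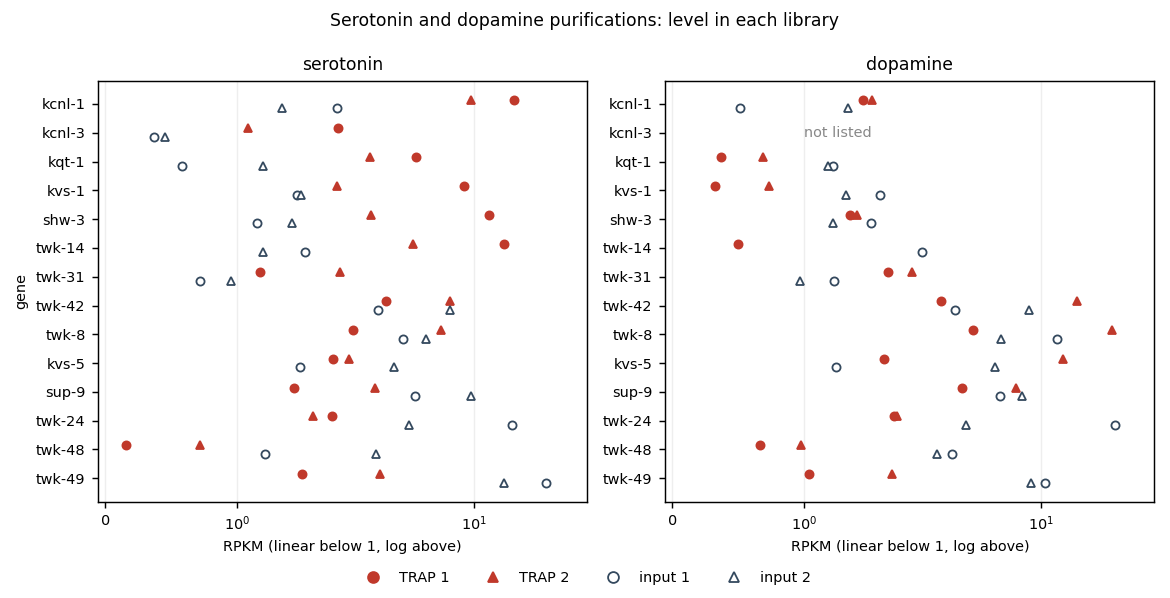
RPKM of 14 potassium channel genes in the TRAP (red) and input (open) libraries of the serotonin and dopamine purifications, circles for replicate 1 and triangles for replicate 2. In serotonin kcnl-1, kcnl-3, kqt-1, kvs-1, shw-3 and twk-14 have both TRAP libraries to the right of the inputs, in dopamine kqt-1, kvs-1 and twk-14 do not, and twk-48 and twk-49 lie to the left in both.

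**Figure D5:**
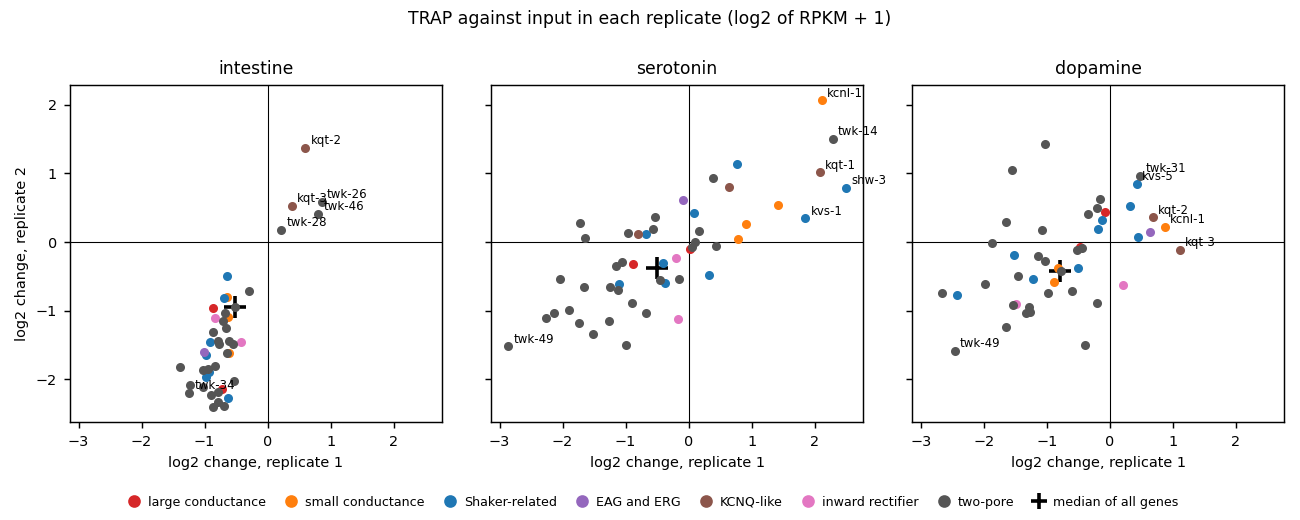
Change of each tested potassium channel gene in replicate 1 (horizontal) and replicate 2 (vertical), as log2(TRAP RPKM + 1) minus log2(input RPKM + 1), in the intestine, serotonin and dopamine purifications, coloured by family, with a cross at the median of all genes. In the intestine 5 genes lie above 0 in both replicates, in serotonin kcnl-1, twk-14, shw-3 and kqt-1 lie farthest above, and in serotonin and dopamine twk-49 lies farthest below.

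In the dopamine purification no member was called above input. limma without the block called 0 of 46 members and 0 of 14400 genes, as did RLE scaling and edgeR, with 5 members (10.9%) at an unadjusted p under 0.05 in limma, under the 27.9% of genes. With the block 0 were called higher, where 8.44% of genes were, and 9 lower, where 30.5% of genes were, so the members' share lower was under that of all genes. Both TRAP libraries were below both inputs for 18 of the 46 members and for 6196 of the 14400 genes. They were above both inputs for 4 members, against 16.8% of genes. twk-31 was at 2.28 and 2.86 RPKM in TRAP and 1.34 and 0.97 RPKM in input (change 0.73), and kcnl-1 at 1.77 and 1.95 RPKM in TRAP and 0.52 and 1.53 RPKM in input (change 0.54). kqt-2 was at 5.301 and 4.32 RPKM in TRAP and 2.93 and 3.14 RPKM in input (change 0.52), and kvs-4 at 1.21 and 2.09 RPKM in TRAP and 0.78 and 1.14 RPKM in input (change 0.42). None of these 4 passed with or without the block.

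twk-49 again had the most negative change, at 1.06 and 2.35 RPKM in TRAP and 10.3 and 9.05 RPKM in input, a change of -2.02 ± 0.58 (SE) (adjusted p 0.096 without and 8.6e-04 with the block, 8.6e-04 to 0.31 over all alternatives). shl-1 was at 0.56 and 1.26 RPKM in TRAP and 7.39 and 2.86 RPKM in input (change -1.602), and twk-48 at 0.67 and 0.98 RPKM in TRAP and 4.21 and 3.65 RPKM in input (change -1.44). twk-24 was at 2.39 and 2.47 RPKM in TRAP and 20.4 and 4.82 RPKM in input (change -1.702). The other genes called lower with the block were kvs-1 (-0.88), twk-22 (-1.11), twk-29 (-1.18), irk-3 (-1.19) and twk-34 (-1.298). kvs-1 was at 0.32 and 0.74 RPKM in TRAP and 2.09 and 1.51 RPKM in input and irk-3 at 0.67 and 0.75 RPKM in TRAP and 3.67 and 2.26 RPKM in input. twk-22 was at 0.5 and 0.79 RPKM in TRAP and 2.62 and 2.44 RPKM in input, twk-29 at 1.699 and 0.67 RPKM in TRAP and 5.81 and 2.41 RPKM in input and twk-34 at 4.17 and 1.601 RPKM in TRAP and 19.4 and 2.99 RPKM in input. Of these 5, twk-34 overlapped, with TRAP 1 above input 2, and the other 4 had both TRAP libraries below both inputs. The listing fixed this direction for kvs-1, irk-3 and twk-22, and for twk-48, with TRAP under 1 RPKM in both replicates. kqt-3 was at 5.401 and 3.45 RPKM in TRAP and 1.97 and 3.83 RPKM in input (change 0.497), with the fractions overlapping, and was not called. The same held for unc-103, at 10.4 and 5.42 RPKM in TRAP and 6.35 and 4.81 RPKM in input (change 0.39). The authors' deposited table of dopamine-enriched genes held 0 members, where 69 of the 18917 genes named in all tables are members. It is the shortest of their tables of enriched genes, shorter than the muscle table of 577 genes. By their share of all genes few members would fall in a table of that length. The count of 0 was not tested against that share, so it does not show that members are absent from dopamine neurons.

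Some members were higher in dopamine TRAP 2 than in TRAP 1, of which kvs-5 was above its own input in both replicates. twk-8 was at 5.19 and 19.9 RPKM in TRAP and 11.6 and 6.79 RPKM in input, twk-42 at 3.78 and 14.2 RPKM in TRAP and 4.35 and 8.87 RPKM in input and kvs-5 at 2.19 and 12.3 RPKM in TRAP and 1.37 and 6.39 RPKM in input. twk-37 was at 1.57 and 6.48 RPKM in TRAP and 6.54 and 2.62 RPKM in input. TRAP 2 was the highest of the 4 libraries for twk-8, twk-42 and kvs-5, and for twk-37 it was just under input 1. The same library held the high sum of body wall muscle markers given above, and the part of those markers in these values was not tested. Other members high in muscle TRAP, shk-1, twk-18 and twk-49, lay below both inputs in dopamine, and twk-37 was not listed in muscle.

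The dopamine and serotonin changes were compared over 8 libraries. limma called 0 of 47 members and 0 of 14001 genes, RLE scaling and edgeR called 0 members too, and 3 members (6.38%) and 1.11% of genes had an unadjusted p under 0.05. The members were kqt-1 (difference -2.15 ± 0.55 (SE), adjusted p 1), kvs-1 (-1.98 ± 0.73 (SE)) and kcnl-1 (-1.54 ± 0.64 (SE)), all with the larger change in serotonin. In dopamine kqt-1 stood below input in both replicates, at 0.37 and 0.69 RPKM in TRAP and 1.33 and 1.27 RPKM in input in replicate order. With TRAP under 1 RPKM in both, the listing fixed that direction. Among other genes of potassium handling, the two-pore gene egl-23 was called higher with the block in both purifications, at 9.69 and 4.64 RPKM in TRAP and 1.4002 and 1.49 RPKM in input in serotonin (change 1.67, adjusted p 0.014, with 0.014 to 0.43 over all alternatives) and 16.9 and 2.03 RPKM in TRAP and 1.43 and 1.53 RPKM in input in dopamine (change 1.57, 0.006, with 0.006 to 0.83). mps-3, of the same single-pass family as mps-1, did so as well, at 19.04 and 25.3 RPKM in TRAP and 7.81 and 7.76 RPKM in input in serotonin (change 1.39) and 51.99 and 37.5 RPKM in TRAP and 6.06 and 17.5 RPKM in input in dopamine (change 1.98). sup-10 was called lower with the block in both (changes -1.83 and -1.92), as was catp-3 (-1.39 and -1.36), a pump subunit. nkb-2 and catp-1 were called lower in serotonin only, and bkip-1 in dopamine only. With the block 2 of 24 list genes were called higher and 4 lower in serotonin, where 9.77% and 29% of all genes were. In dopamine 2 of 25 were called higher and 3 lower, where 8.44% and 30.5% of all genes were. No share of the list was above that of all genes. The differences between these purifications were not called for any of the 24 genes of the list tested.

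Across purifications 3 shapes recurred, given here as a description. For most members the direction in neuronal replicate 2 and muscle replicate 1 was fixed by the listing. It was also fixed in neuronal replicate 1 for some, such as twk-30, twk-35 and twk-43. For shl-1 it was fixed in both intestine replicates. In 15 members TRAP lay above input in both neuronal replicates and in no other listed replicate, and 14 of them are two-pore genes, among them twk-7, twk-29, twk-30, twk-43 and twk-48, with irk-3 the other. They are 27.3% of the 55 members listed in both neuronal replicates, beside 9.13% of genes. Of all 69 members, 45 are two-pore genes. Of the 15, twk-16 was listed in no other replicate and twk-23, twk-32 and twk-47 in 1 other each, so the shape says little for these 4. In 6 members TRAP lay below input in every listed replicate: twk-5, twk-33, twk-34, twk-21, twk-36 and twk-45. They are 8.7% of the 69, beside 11.7% of genes. twk-5 was at 3.196 RPKM in TRAP and 8.97 RPKM in input of replicate 1 in neurons and 7.27 and 4.398 RPKM in TRAP and 22.96 and 9.18 RPKM in input in dopamine, and twk-34 at 2.17 RPKM in TRAP and 5.76 RPKM in input of replicate 1 in neurons. The last 3 reached at most 1.03 RPKM in TRAP. A further 13 stood above input in both muscle and both neuronal replicates and below it in both of the intestine, which are shk-1, shl-1, shw-1, kvs-5, kcnl-1, kcnl-2, unc-103, unc-58, sup-9, twk-13, twk-17, twk-18 and twk-49. They are 72.2% of the 18 members listed in both replicates of all 3, beside 8.34% of genes. In the RefSeq gene order twk-21 and twk-22 are direct neighbours among protein-coding genes, and twk-33, twk-42 and twk-36 lie within 2 genes of the next, yet twk-42 was above input in muscle while twk-33 and twk-36 were in no muscle table.

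The tables of all purifications name 18917 genes, of which 69 are members. In the authors' deposited table of neuron-enriched genes, 39 members stand among 2370 genes, with average enrichments from 7.83 for kvs-5 to 190.02 for kcnl-4. In the authors' deposited table of muscle-enriched genes there are 9 among 577, led by twk-13 (29.3), shk-1 (21.7) and kvs-5 (16.9). Those averages are ratios of the scaled count columns and were not recomputed.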

How the data were processed

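RNA of 20 libraries was measured, 2 TRAP and 2 input in each of 5 strains, grouped by the labels. STAR and HTSeq are the tools named in the submitters' processing notes, with no version, and the genome build is not given in the sources used here. Per the file headers each table holds count columns, RPKM and their ratio. From the values, the deposited counts of 1 library in each replicate are whole reads plus 1, and those of the other are multiplied by a factor and so are a scaled signal. The deposited ratio divides these columns. The reads were recovered by undoing the factor, and the deposited RPKM was within 2% of proportional to them for 100% of the genes checked.

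The planned test on counts was replaced by limma 3.58.1 (R 4.3.3) with a trend on log2 of deposited RPKM with a pseudocount of 1, since the count columns are scaled. It was fitted on every gene that both replicates list and whose mean is at least 1 RPKM, and p-values were adjusted over all of them (Benjamini-Hochberg). Fits over 4 libraries gave each purification, and fits over 8 the differences between purifications. Alternatives were a replicate block, RLE scaling, a pseudocount of 0.25, no filter, edgeR 4.0.16 on recovered reads and each library left out. TRAP and input of 1 replicate stand side by side in the tables; their deviations from the group means correlated across genes at 0.45 to 0.68, so the number was read as a pairing. The main fits were planned without a replicate block and so left this pairing out. How the counts depend on the block is given below. The fits were tested on simulated data.

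The members and lists were chosen with earlier results of these data known. Values in every library of a purification were given for the members called in it with or without the block, for the 5 largest increases and 3 largest decreases among tested members whose higher fraction averaged 2 RPKM or more, and, in at least 1 purification, for slo-1, slo-2, shk-1, egl-36, exp-2, egl-2, unc-103, sup-9, unc-58, twk-18, irk-1, kqt-1 and kqt-3. Of the other gene lists, 2 of the 31 genes of potassium handling, sup-18 and nca-1, were in no table.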

Additional observations from a re-analysis of the deposited data

Results flagged for a closer look

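The changes of 27 members differed between the neuronal and the intestine purification, and those of 8 between muscle and intestine, by the test of the difference itself in limma, each with the change smaller in the intestine. Differences in log2 change are given after each name. Among the two-pore genes, neurons exceeded intestine for twk-49 (6.33), twk-48 (5.96), twk-13 (5.30), twk-43 (5.21), twk-7 (5.11), unc-58 (5.07), twk-29 (5.02), twk-40 (4.89), twk-17 (4.81), twk-30 (3.95) and twk-9 (3.16). Among the other families, the same held for exp-2 (5.79), shw-1 (5.77), kcnl-4 (5.75), shk-1 (5.73), unc-103 (5.58), kcnl-2 (5.49), kcnl-1 (4.98), egl-36 (4.83), slo-2 (4.53), slo-1 (4.48), shl-1 (4.45), shw-3 (4.30), kvs-5 (4.16), irk-3 (4.14), kvs-4 (3.72) and irk-2 (3.40). Muscle exceeded intestine for kvs-5 (3.94), shk-1 (3.82), twk-8 (3.24), twk-42 (3.17), twk-13 (2.97), shw-1 (2.80), twk-24 (2.66) and shl-1 (2.16). The neuronal and muscle differences share the intestine libraries. For part of these genes the listing fixed the direction within a purification, as given above. Groups hold 2 libraries each, so no library could be tested for standing apart from the rest of its group.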

How the results depend on the processing

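Counts of members called are given here. The neuronal count of 38 higher became 23 with RLE scaling and 0 with edgeR, and ran from 0 to 30 with 1 library left out. The muscle count of 0 higher became 3 with RLE scaling and 4 with edgeR. The intestine count of 4 lower became 19 with the replicate block, 0 with RLE scaling, 1 with a pseudocount of 0.25 and 0 with edgeR, and ran from 0 to 6 with 1 library left out. With the replicate block the serotonin counts became 4 higher and 10 lower, and the dopamine count 9 lower. The block also gave 2 for neurons over muscle, where leaving out neuronal input 1 gave 1 and each other library 0, so 0 to 1, and 14 for muscle over intestine, where 1 library left out gave 0 to 12. Neurons over intestine, 27, ran from 22 to 35 with 1 library left out and was 20 with RLE scaling and 23 with edgeR. The block changed no other count by over 1.5 times. No called change of a member turned its sign under any alternative run. Without the filter and with other settings not named, counts stayed within 1.5 times. The causes were not tested.

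With 2 libraries a group, limma leans on a spread pooled over genes. Depth limits the neuronal inputs most, where the median listed gene had 44 and 70 reads, and a change there is uncertain for members with few or no input reads. RPKM depends on the few most abundant RNAs of a library, and RLE scaling moved the median of all genes by over 0.1 in all 5 purifications. A gene under 1 RPKM in both fractions is not listed, so absence from a table is not absence from the cells.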

Other observations

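The neuronal TRAP libraries differed in a gene-specific way, in two-pore genes and in genes outside the family. The level in TRAP 1 over that in TRAP 2 was 13.1 for twk-49, 10.05 for twk-48, 9.97 for twk-46, 8.14 for twk-29, 6.97 for twk-30, 6.68 for twk-47 and 6.51 for twk-16. These are the 7 of 55 members (12.7%) over 5, and 7.12% of the 13325 genes with at least 1 RPKM in both libraries were over 5. The median was 2.40 for members and 0.97 for all genes. Outside the family, egl-3 was at 1414 and 84.7 RPKM, sng-1 at 219 and 18.1 and nkb-3 at 137 and 11.8. Other neuronal markers were even, with rab-3 at 688 and 723 RPKM and ric-4 at 1639 and 1468.

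twk-49 and twk-48 were the highest members in neuronal TRAP 1, and both had TRAP below input in the serotonin and the dopamine purification. egl-23 had the same unevenness between neuronal TRAP libraries, 43.9 and 4.40 RPKM, but stood above input in serotonin and dopamine TRAP. The difference between the neuronal and the serotonin or dopamine changes was not tested.

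Summed over all listed members, neuronal TRAP held 1706 and 539.7 RPKM. The sums were 75.5 and 75.7 RPKM in muscle TRAP, 133 and 121 RPKM in intestine TRAP, 238 and 219 RPKM in serotonin TRAP, and 189 and 202 RPKM in dopamine TRAP. Inputs summed to 7.79 to 373 RPKM over all 10 input libraries. Tables were normalized separately and list different numbers of members.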
